A study of Danio rerio with 22 samples.

Results

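The 2 genes described here are piwil1 (ENSDARG00000041699, known in zebrafish as ziwi) and piwil2 (ENSDARG00000062601, known as zili), the 2 Piwi genes of the zebrafish. They were taken by their identifiers from the 32057 genes listed for each library, and both were measured in all 22 libraries. The germ cell libraries came from hybrid larvae of the Nadia and Tüpfel long-fin strains. For the 2 libraries of trunk cells the paper names no hybrid or strain. The W-hybrid, the offspring of WW Nadia females and Tg(ziwi:GFP) fish, was presumptively female, and the Z-hybrid, the offspring of a ZZ Nadia father and a Tg(ziwi:GFP) mother, was presumptively male. The transgene thus came from opposite parents in the 2 hybrids, and an effect of that cannot be told apart from an effect of the hybrid. Every germ cell library was made from GFP-positive cells sorted by flow cytometry from pooled larvae, so that a replicate is a batch of pooled animals and not a single fish. A first experiment used Quartz-seq, with 2 W-hybrid libraries and 1 Z-hybrid library at each of 12 and 14 days post fertilization (dpf). A second used Smart-seq, with 3 libraries of each hybrid at 10 dpf and 4 of each at 12 dpf, together with 2 libraries of trunk cells labelled 10 dpf as the negative control. Method and experiment always changed together.

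Piwi proteins are the germline branch of the Argonaute family. They bind piRNAs, small RNAs that guide them to the transcripts of transposable elements, which are then cut. The cut pieces can be loaded into another Piwi protein, which keeps the cycle going, and in zebrafish the products of both genes take part in it. The proteins sit in perinuclear granules together with Vasa (ddx4) and Tudor domain proteins. Loss of either gene in zebrafish leads to loss of germ cells. The promoter of piwil1 is also the one that drives GFP in these fish, so every germ cell measured here was collected because that promoter was active. The transgene carries a short transcribed stretch of the gene's own 5′ end, and the share of piwil1 reads that came from it was not tested.

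Total counts lay between 13556577 and 18321692 in the 14 germ cell libraries made by Smart-seq and between 13828829 and 37224647 in the 6 Quartz-seq libraries. The summed level of 5 germ cell markers (ddx4, dnd1, dazl, nanos3 and ca15b) was at least 1873 TPM, a level of transcripts scaled for length and depth, in every germ cell library and 0.48 and 0.57 TPM in the trunk libraries, as the labels have it. Among the germ cell libraries, the 12-dpf W-hybrid Quartz-seq pair stood apart for muscle markers, with summed levels of 101 and 1513 TPM against 57.09 TPM or less elsewhere. The single 12-dpf Z-hybrid Quartz-seq library stood apart for markers of the nervous system (30.95 TPM) and blood (25.8 TPM). These sums were measured over 3 markers each. In that Z-hybrid library the blood sum was nearly all alas2 (24.72 TPM), with the globin genes hbaa1 and hbae1.1 at 0.35 and 0.73 TPM. Its nervous system sum came from elavl3 (21.65 TPM) and mbpa (9.3 TPM), with gfap at 0 TPM.

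The level of piwil1 was high in all 20 germ cell libraries, whose cells were sorted on the activity of its own promoter. What that sort did to differences in piwil1 between hybrids, ages or methods was not tested. At 10 dpf by Smart-seq, piwil1 was at 1008, 721 and 1163 TPM in the W-hybrid (964.1 ± 224, SD, n = 3) and at 1505, 1104 and 1420 TPM in the Z-hybrid (1343 ± 211, n = 3). At 12 dpf by Smart-seq it was at 1097, 1184, 1273 and 828.9 TPM in the W-hybrid (1096 ± 192, n = 4) and at 1189, 1140, 794.5 and 1085 TPM in the Z-hybrid (1052 ± 177, n = 4). The 4 Smart-seq groups overlapped one another. By Quartz-seq, piwil1 was at 7023 and 7300 TPM in the 12-dpf W-hybrid, 3794 TPM in the 12-dpf Z-hybrid, 6414 and 6979 TPM in the 14-dpf W-hybrid and 5096 TPM in the 14-dpf Z-hybrid. All 6 Quartz-seq values lay above the highest Smart-seq value, and within Quartz-seq both Z-hybrid libraries lay below all 4 W-hybrid libraries. Among all genes of a library ordered by TPM, piwil1 stood between place 5 and place 15 by Quartz-seq and between place 65 and place 243 by Smart-seq. Its reads made up 0.508% to 1.12% of the counts by Quartz-seq and 0.202% to 0.36% by Smart-seq.

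Per length, the level of piwil2 was 3.08 to 5.46 times lower than that of piwil1 in each germ cell library. At 10 dpf by Smart-seq, piwil2 was at 212.5, 133.8 and 297.8 TPM in the W-hybrid (214.7 ± 82.1, n = 3) and at 460.6, 297.2 and 339.5 TPM in the Z-hybrid (365.7 ± 84.8, n = 3). The highest W-hybrid value and the lowest Z-hybrid value were nearly equal, so that the groups touched. At 12 dpf by Smart-seq it was at 292.3, 255.3, 311.3 and 152.1 TPM in the W-hybrid (252.7 ± 71, n = 4) and at 341.4, 217.5, 145.5 and 245.2 TPM in the Z-hybrid (237.4 ± 81.1, n = 4), with full overlap. By Quartz-seq, piwil2 was at 1961 and 1938 TPM in the 12-dpf W-hybrid, 1011 TPM in the 12-dpf Z-hybrid, 2083 and 1770 TPM in the 14-dpf W-hybrid and 1455 TPM in the 14-dpf Z-hybrid. As for piwil1, the Quartz-seq values were all above the Smart-seq values, and the 2 Z-hybrid values were the lowest of the 6. Its place in the order of genes was 39 to 109 by Quartz-seq and 356 to 1325 by Smart-seq.

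**Figure D1:**
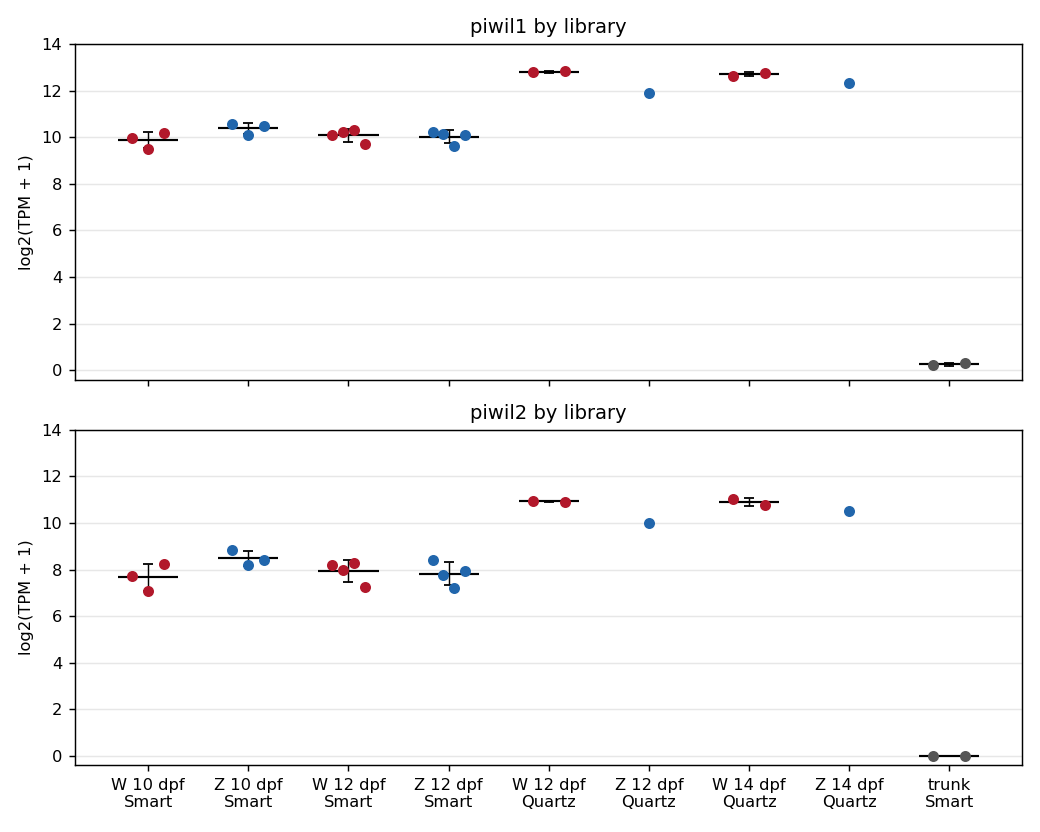
Level of piwil1 (top) and piwil2 (bottom) in each of the 22 libraries as log2(TPM + 1), by hybrid, age and method, with W-hybrid in red, Z-hybrid in blue and trunk in grey. Points are libraries, black lines are group means and bars are SD where a group has more than 1 library, and the 6 Quartz-seq libraries sit above the 14 germ cell libraries of Smart-seq while trunk is at or near 0.

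In the order of mean levels, the Quartz-seq groups came first for both genes (W-hybrid at 12 dpf, W-hybrid at 14 dpf, Z-hybrid at 14 dpf, Z-hybrid at 12 dpf). The Smart-seq groups followed, with the 10-dpf Z-hybrid first, then the 12-dpf W-hybrid and the 12-dpf Z-hybrid, and the 10-dpf W-hybrid last. Neighbours among the Smart-seq groups had overlapping libraries for both genes, and so did the W-hybrid at 12 and 14 dpf by Quartz-seq for piwil2. For piwil1, the W-hybrid values at 14 dpf lay just below those at 12 dpf.

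In trunk cells, neither gene was measured above traces. The counts of piwil1 were 6 and 4 in the 2 trunk libraries (0.16 and 0.24 TPM), and those of piwil2 were 0 in both. At a limit of 3 counts per library, which covers counting error only, piwil2 was at least 4170-fold higher in the 10-dpf germ cells than in trunk by CPM, a count scaled to the library total. The ratio of mean CPM for piwil1 was 8919. Since the germ cells were sorted by the activity of its promoter, the piwil1 ratio describes the sort, and no test result is read from it. In the quasi-likelihood test of edgeR, with p-values adjusted over all genes, piwil2 passed (adjusted p = 2.58e-08), in a comparison in which 43.9% of 22024 genes were called. Here and below, called means that the adjusted p was under 0.05, that the groups differed 1.5-fold or more, and that the group with more of the transcript averaged over 5 TPM.

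The other genes of the pathway were read from a list of 20 piRNA pathway genes that matched by symbol. In germ cells against trunk, 19 of the 20 were called higher in germ cells and none lower, with a median log2 fold change of 8.81, against 0.347 for all genes tested. The mitochondrial nuclease gene pld6 (Zucchini), whose product in flies and mice makes the 5′ ends of piRNAs, and tdrd7a, which codes for a Tudor protein of the granules, had 0 counts in both trunk libraries and were at least 2130-fold and 2450-fold higher in germ cells at the same limit. With these 2 genes at their bounds the list's median was still 8.81. The Vasa gene ddx4 had 3 and 0 counts in trunk, and tdrd1 had 6 and 7 (log2 fold change 10.16). The smallest called difference was in prmt5 (1.67), the arginine methyltransferase whose marks on Piwi proteins are bound by Tudor domains and which is used by many cells. The exception was tex15, which in mice acts with a nuclear Piwi protein, at -2.72 and not called. Its trunk mean of 3.68 TPM, the highest of the 3 groups, was under the 5 TPM that a call needs. At 10 dpf it was at 0.32 to 0.82 TPM in W-hybrid germ cells, 0.33 to 1.27 TPM in those of the Z-hybrid and 1.15 and 6.21 TPM in trunk. The Z-hybrid range overlapped that of trunk, and the W-hybrid range lay below it. The 5 genes of the other Argonaute branch (ago1, ago2, ago3a, ago3b and ago4) code for proteins that bind microRNAs and small interfering RNAs. In germ cells against trunk their median log2 fold change was -0.865, and 1 of the 5 was above 0, at 1.545. Their summed level was 2.69 to 10.68 TPM in germ cells and 5.96 and 11.58 TPM in trunk. None was called higher in germ cells, where all 5 averaged under 5 TPM at 10 dpf, too low for such a call. The gene ago3b was called lower (log2 fold change -1.57, adjusted p = 0.00105 by edgeR). At 10 dpf ago3b was at 1.59 to 3.58 TPM in the W-hybrid, 2.24 to 4.77 TPM in the Z-hybrid and 4.46 and 6.53 TPM in trunk. For ago3b too the Z-hybrid range overlapped that of trunk and the W-hybrid range lay below it. The trunk mean of 5.495 TPM lay just above the minimum for a call. None of the 5 Argonaute genes was called in any comparison of hybrid, age or method. Their germ cell group means were under the 5 TPM that a call needs, so most of these comparisons could give no call. The only mean above it was ago3a at 6.11 TPM in the single 14-dpf Z-hybrid Quartz-seq library. Between methods in the 12-dpf W-hybrid, ago3b passed the test (log2 fold change -4.30, adjusted p = 2.86e-06 by edgeR), with 0.20 and 0.27 TPM by Quartz-seq and 2.38 to 5.57 TPM by Smart-seq, but its mean stayed under the 5 TPM that a call needs.

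The comparison of W- and Z-hybrid germ cells at 10 dpf asked whether the Piwi genes differed between presumptive females and males at the earliest age. By edgeR, piwil2 was lower in the W-hybrid, at 0.664 of the Z-hybrid level (log2 fold change -0.59, SE 0.189, 95% interval -0.99 to -0.19, adjusted p = 0.0499). The log2 fold change of piwil1 was -0.31 (SE 0.156, interval -0.63 to 0.02, adjusted p = 0.202), and it was not called. In this comparison 7.11% of 20080 genes were called. The W-hybrid had more of 613 of them and less of 815 (330 and 1030 by library size alone). The piwil2 call sat at the threshold and was lost in 9 of 13 alternatives, with adjusted p-values from 0.00545 to 0.216. Leaving out a library lost it in 5 of 6 cases by edgeR. Without W-hybrid replicate 1 the log2 fold change was -0.58 (adjusted p = 0.158) and without W-hybrid replicate 2 it was -0.38 (adjusted p = 0.175). Without Z-hybrid replicates 1, 2 and 3 in turn it was -0.44, -0.70 and -0.61 (adjusted p = 0.19, 0.0596 and 0.0867). The value was thus smaller without W-hybrid replicate 2 or Z-hybrid replicate 1 and about as large or larger without each of the other 3.

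The length of transcripts moved with this comparison. Both Piwi genes have long transcripts, of 3229 bases for piwil1 and 3612 bases for piwil2 (weighted mean over isoforms, by Smart-seq). The 2358 tested genes between 3000 and 4000 bases had a median of -0.26 on the log2 scale at 10 dpf, W- against Z-hybrid, and the 2738 genes under 1000 bases had a median of 0.24. The TPM-weighted mean transcript length of a library was 1315, 1242 and 1364 bases in the W-hybrid and 1447, 1345 and 1352 bases in the Z-hybrid. With this trend of length removed from each library, an alternative added after seeing the data, the log2 fold change was -0.08 for piwil1 and -0.35 for piwil2, and neither was called (adjusted p = 0.733 and 0.148 by edgeR). The summed level of the 5 germ cell markers ranged over 1873 to 2563 TPM for the W-hybrid libraries and 2454 to 2870 TPM for those of the Z-hybrid, and none of the 5 was called. A smaller share of germ cells in a library and a smaller share of the transcript in each germ cell cannot be told apart in such bulk libraries.

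Among the other piRNA pathway genes at 10 dpf, 19 of 20 could be tested, none was called higher in the W-hybrid and 2 were called lower, beside 7.11% of all genes called in either direction. These were tdrd12 (log2 fold change -0.83, adjusted p = 0.00203), a Tudor protein that in mice is needed for secondary piRNAs, and tdrd9 (-0.71, adjusted p = 0.0174), a helicase with a Tudor domain, both by edgeR. The list's median was -0.11 against -0.03 for all genes, and 6 of the 19 were above 0. Across these 19 genes and the 2 Piwi genes, the log2 fold change and the log2 transcript length had a correlation of -0.53, a description over genes that share their libraries.

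At 12 dpf by Smart-seq, no difference between the hybrids was detected for either gene. The log2 fold change was -0.01 for piwil1 (SE 0.168, interval -0.36 to 0.35, adjusted p = 0.992) and 0.06 for piwil2 (interval -0.40 to 0.51, adjusted p = 0.948) by edgeR. These intervals leave room for differences of the size seen for piwil1 at 10 dpf. The piwil2 interval ends short of that gene's 10-dpf value of -0.59, which had an interval of -0.99 to -0.19. Of 20066 genes, 0.145% were called, and none of the 20 piRNA pathway genes was among them (median 0.05). The change in the hybrid difference from 10 to 12 dpf was 0.28 for piwil1 (interval -0.21 to 0.78, adjusted p = 0.572) and 0.63 for piwil2 (interval -0.05 to 1.31, adjusted p = 0.331). In that test 0 genes, or 0%, were called by edgeR, with 3726 at an unadjusted p under 0.05 and 391 called by DESeq2. A difference between the 2 ages was therefore not shown.

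Age within a hybrid did not move either gene past the test. From 10 to 12 dpf in the W-hybrid, the log2 fold change was 0.16 for piwil1 (adjusted p = 0.73) and 0.22 for piwil2 (adjusted p = 0.727) by edgeR, where 0% of 21675 genes were called. DESeq2 called 103, and 2744 were at an unadjusted p under 0.05 in edgeR. In the Z-hybrid it was -0.12 for piwil1 (adjusted p = 0.72) and -0.41 for piwil2 (interval -0.89 to 0.07, adjusted p = 0.331) by edgeR, where 1.58% were called. By Quartz-seq, from 12 to 14 dpf in the W-hybrid, it was -0.18 for piwil1 and -0.10 for piwil2 (adjusted p = 1 for each, edgeR), where 0.013% of 23154 genes were called. None of the 20 piRNA pathway genes was called in these 3 comparisons. Length moved with the Z-hybrid comparison too, with a median of -0.21 for genes of 3000 to 4000 bases and 0.26 for those under 1000 bases. Across the 20 pathway genes and the 2 Piwi genes, its log2 fold change and log2 length had a correlation of -0.85, again a description. The piwil1 value there lay between -0.27 and 0.07 over the alternatives. For scale, the summed level of 7 genes of meiotic stages was 269.5 to 299 TPM in the 10-dpf W-hybrid and 464.1 to 688.9 TPM in the 12-dpf W-hybrid by Smart-seq, without overlap, while both Piwi genes overlapped between these ages. In the Z-hybrid the sums were 217.4 to 326.9 TPM at 10 dpf and 252.8 to 1517 TPM at 12 dpf. By edgeR, 0 of the 7 meiotic genes were called in the W-hybrid (median log2 fold change 1.06), so that they did not pass there either. In the Z-hybrid 3 of the 7 were called higher at 12 dpf (median 2.07), beside 1.58% of all genes called.

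In the Quartz-seq experiment at 12 dpf, both Piwi genes were above the Z-hybrid level in the W-hybrid, by about the same amount. The log2 fold change was 1.08 for piwil1 (SE 0.318, interval 0.39 to 1.77, adjusted p = 0.027) and 1.11 for piwil2 (SE 0.322, interval 0.41 to 1.80, adjusted p = 0.0256) by edgeR, with both W-hybrid libraries above the Z-hybrid library. The Z-hybrid was a single library, so its own spread is unknown, and the spread came from the W-hybrid pairs. In this comparison 21.5% of 23154 genes were called, and the median over all genes was 0.31 (log2) under TMM scaling and 0.14 under the size factors of DESeq2. Without regard to direction, the median change over all genes was 1.399 under TMM, larger than that of either Piwi gene. By signed log2 fold change piwil1 and piwil2 stood at percentiles 64.5 and 64.9 of all genes. Relative to the signed median, piwil1 was at 0.77 and 0.76 and piwil2 at 0.80 and 0.78 under the 2 scalings. Under the second scaling neither was called (adjusted p = 0.0762 and 0.0699 by edgeR). Both calls were lost without either W-hybrid library, while the log2 fold changes stayed close to the values above. Without W-hybrid replicate 1 they were 1.09 for piwil1 and 1.08 for piwil2 (adjusted p = 0.123 and 0.112), and without replicate 2 they were 1.06 and 1.13 (adjusted p = 0.183 and 0.134), all by edgeR. Over all 11 alternatives the adjusted p of edgeR or DESeq2 lay between 0.00334 and 0.183 for piwil1 and between 0.00538 and 0.134 for piwil2. With the trend of length removed, both calls were kept (1.02 and 1.18). The Z-hybrid library was the shallowest of the Quartz-seq experiment, with 13828829 counts against 25610705 and 37224647 in the W-hybrid pair, and 16597 genes in it had 10 or more counts against 19123 and 19984. It also had the highest sums of nervous system and blood markers, and the W-hybrid pair had the highest sums of muscle markers, as given above. Their part in the result was not tested.

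At 14 dpf, where again 1 Z-hybrid library faced 2 W-hybrid libraries, the log2 fold change was 0.16 for piwil1 (interval -0.50 to 0.82, adjusted p = 0.751) and 0.17 for piwil2 (interval -0.49 to 0.84, adjusted p = 0.734) by edgeR. The median of all genes was 0.283, and 9.18% were called. Here too the Z-hybrid library had fewer genes with 10 or more counts, 16617 against 18966 and 20378 in the W-hybrid pair. On the TPM scale both W-hybrid libraries lay above the Z-hybrid library for both genes, but relative to the median of all genes piwil1 was at -0.12 and piwil2 at -0.11.

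**Figure D2:**
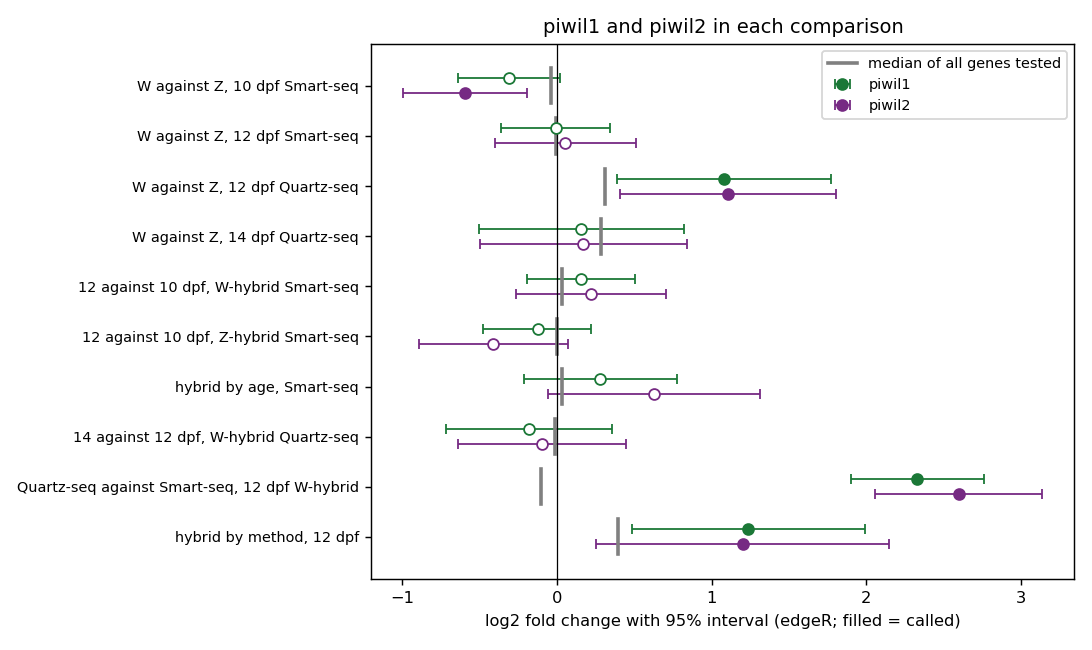
Log2 fold changes of piwil1 (green) and piwil2 (purple) with 95% intervals in the 10 comparisons among germ cells, from edgeR's fits over all genes. Filled points were called, grey bars mark the median of all genes tested, and the 2 genes lie near each other in each comparison, from -0.59 for piwil2 at 10 dpf to 2.60 for piwil2 between methods.

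The rest of the piRNA pathway list did not move as a block in the Quartz-seq libraries. At 12 dpf, 5 of 20 genes were called up in the W-hybrid and 1 down, beside 21.5% of all genes called in either direction. The list's median was 0.75 against 0.31 for all genes, and 16 of 20 were above 0. Those higher by edgeR were pld6 (2.15, adjusted p = 0.00188), tdrkh (2.05, adjusted p = 0.00129), a mitochondrial Tudor protein that in mice tethers Piwi proteins for trimming, tdrd15, another Tudor gene (1.39, adjusted p = 0.00852), asz1 (1.06, adjusted p = 0.0459), a mitochondrial protein of the granules, and tex15 (adjusted p = 0.0237). The counts of tex15 were 54 and 77 in the W-hybrid (6.85 and 7.31 TPM) and 0 in the single Z-hybrid library, at least 9.63-fold higher by CPM at a limit of 3 counts in that library, and with tex15 at this bound the list's median was still 0.75. The one lower was mybl1, a transcription factor that in mice drives piRNA precursors of the pachytene stage (-1.13, adjusted p = 0.0234). At 14 dpf, where 9.18% of all genes were called, 1 of the 20 was, henmt1, the methyltransferase that protects piRNA 3′ ends (1.36, adjusted p = 0.0379 by edgeR), with a list median of 0.41 against 0.283 for all genes.

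**Figure D3:**
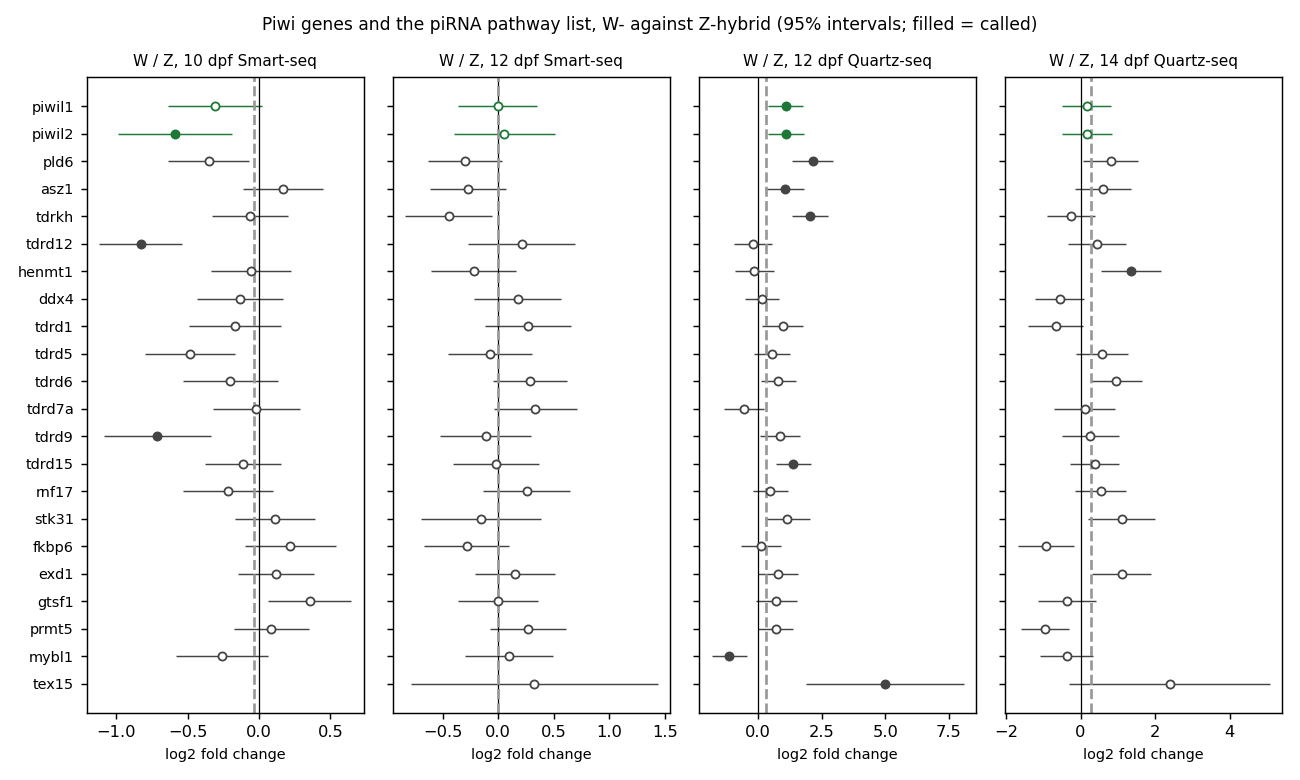
Log2 fold changes of W- against Z-hybrid for piwil1, piwil2 (green) and the 20 piRNA pathway genes (grey) in 4 comparisons, with 95% intervals, each panel on its own scale. Filled points were called, the dashed line is the median of all genes tested, and the called pathway genes are 2 at 10 dpf, none at 12 dpf by Smart-seq, 6 at 12 dpf by Quartz-seq and 1 at 14 dpf. The tex15 point at 12 dpf by Quartz-seq is fitted over a Z-hybrid library at 0 counts and its position is no bound.

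The germ cell genes ddx4 and dazl did not share the Piwi difference between the hybrids by Quartz-seq. The RNA helicase gene ddx4 was at 4166 and 5023 TPM in the 12-dpf W-hybrid, with 4621 TPM in the Z-hybrid (log2 fold change 0.15, adjusted p = 0.745 by edgeR). The gene dazl, which codes for a germ cell RNA-binding protein, was at 1754 and 1490 TPM in the 12-dpf W-hybrid, with 5242 TPM in the Z-hybrid (-1.54, adjusted p = 0.00521 by edgeR), the opposite direction. The translational regulator gene nanos3 had values on the same side as the Piwi genes at 12 dpf, with 8.26 and 13.06 TPM against 2.58 TPM (log2 fold change 2.14, adjusted p = 0.0665 by edgeR, not called), and on the other side at 14 dpf (-2.05, adjusted p = 0.0631 by edgeR, not called). A ratio within a library does not depend on how libraries are scaled. The ratio of piwil1 to ddx4 TPM was 1.69, 1.45, 1.49 and 1.54 in the 4 W-hybrid Quartz-seq libraries, and 0.821 and 0.928 in the 2 Z-hybrid ones. The 14 Smart-seq libraries lay between 0.778 and 1.28, so that the Z-hybrid Quartz-seq ratios fell within the Smart-seq range and the W-hybrid ones above it. For piwil1 to dazl, the W-hybrid Quartz-seq ratios were 4, 4.9, 3.66 and 5.56, against 0.724 and 0.976 in the Z-hybrid. Both Z-hybrid libraries had far more dazl (5242 and 5219 TPM) than any of the 4 W-hybrid ones (1255 to 1754 TPM). At 14 dpf the W-Z log2 fold change was -2.04 for dazl, -0.56 for ddx4 and 0.16 for piwil1. The marker dnd1 lay on the side of dazl, with -0.79 at 12 dpf and -0.52 at 14 dpf. The marker ca15b was at -0.66 at 12 dpf and on the other side, at 4.095, at 14 dpf. It was not called at either age, and its level was 5.29 TPM or less in every Quartz-seq library. The ratios to ddx4 and dazl at 14 dpf therefore do not show a raised piwil1 level. At 12 dpf the ratio to dazl also carries the dazl difference of -1.54, beside 1.08 for piwil1. Between methods in the 12-dpf W-hybrid, ddx4 moved by 1.57 and piwil1 by 2.33, so ratios compared across methods carry the method too.

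**Figure D4:**
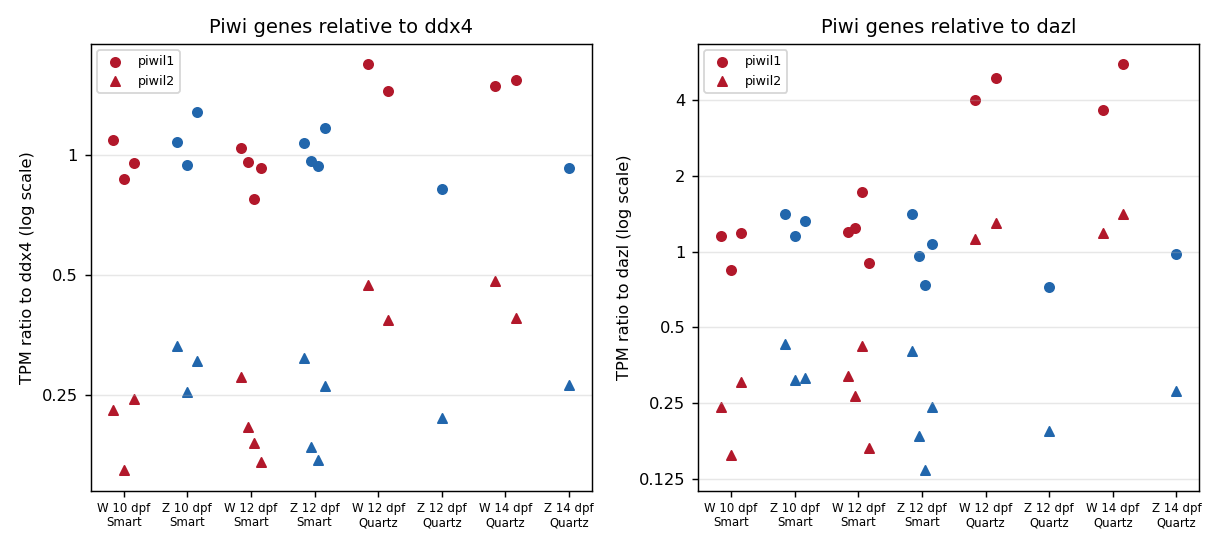
Ratio of piwil1 (circles) and piwil2 (triangles) TPM to ddx4 (left) and dazl (right) TPM in each of the 20 germ cell libraries on a log2 axis, W-hybrid in red and Z-hybrid in blue. The 4 W-hybrid Quartz-seq libraries have piwil1 to ddx4 ratios of 1.45 to 1.69, above every other library.

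For both genes, the method made the largest difference of the 10 comparisons among germ cells. In the 12-dpf W-hybrid, the log2 fold change of Quartz-seq over Smart-seq was 2.33 for piwil1 (SE 0.205, adjusted p = 2.82e-08) and 2.60 for piwil2 (SE 0.258, adjusted p = 1.27e-07) by edgeR, where 37.3% of 23931 genes were called. The genes between 3000 and 4000 bases had a median of 0.84 in this comparison and those under 1000 bases a median of -1.74. With the trend of length removed, the values were 1.65 for piwil1 and 1.85 for piwil2, and both calls were kept. The TPM-weighted mean transcript length was 2122 to 2428 bases in the Quartz-seq libraries and 1236 to 1447 bases in the germ cell libraries of Smart-seq. In the pathway list, 12 of 20 genes were called higher by Quartz-seq and 4 lower. The highest were tdrd12 (3.25), tdrd1 (3.01), whose Tudor protein binds Piwi proteins in zebrafish, and tdrd9 (2.98). Those lower were gtsf1 (-1.83), a Piwi partner, fkbp6 (-1.51), a co-chaperone of the pathway in mice, exd1 (-1.08) and henmt1 (-0.61). The 4 lower genes had mean lengths of 990 to 1475 bases, and the 3 highest had 4178 to 4524 bases. Across the 20 genes and the 2 Piwi genes, the log2 fold change and the log2 length had a correlation of 0.68, a description over genes that share their libraries. Among the genes that did not follow the order of lengths were tex15, at 1.51 with 777 bases, and stk31 and mybl1, at 0.62 and 0.31 with 4526 and 4429 bases, none of them called. Another was tdrd15, at 1.31 with 6462 bases, below ddx4 at 1.57 with 2778 bases. Age, hybrid and strain were the same in this comparison, but experiment and method were not, and these cannot be told apart.

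The hybrid difference at 12 dpf also differed between the methods. The interaction, the W-Z difference by Quartz-seq minus that by Smart-seq, was 1.24 for piwil1 (SE 0.36, adjusted p = 0.013) and 1.201 for piwil2 (SE 0.452, adjusted p = 0.0468) by edgeR, with 27.7% of 23931 genes called and a median of 0.397. Without regard to direction, the median interaction over all genes was 1.414, larger than that of either Piwi gene. The Piwi interaction rests on the single 12-dpf Z-hybrid Quartz-seq library, which cannot be left out. It also rests on W-hybrid libraries with muscle markers at 101 and 1513 TPM, whose part in the result was not tested. The piwil1 call was kept without each of the other 10 libraries in turn and lost with the size factors of DESeq2 (adjusted p = 0.0646 by edgeR, the highest of 15 alternatives, which began at 0.0146). The piwil2 call was kept without 3 of the 10, Smart-seq W-hybrid replicates 1 and 3 and Z-hybrid replicate 3 (adjusted p = 0.0457, 0.0396 and 0.0351), and lost without W-hybrid replicate 2 (0.0613) or 4 (0.0626), Z-hybrid replicate 1 (0.0741), 2 (0.0554) or 4 (0.0591), or Quartz-seq W-hybrid replicate 1 (0.0959) or 2 (0.115), all by edgeR. Over its 15 alternatives the adjusted p lay between 0.0351 and 0.149 by edgeR or DESeq2. In the pathway list, the same test called pld6, asz1, tdrkh, tdrd15 and tex15 up and mybl1 down, with tex15 at 0 counts in the Z-hybrid Quartz-seq library.

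The balance between the 2 Piwi genes differed less between the methods than their levels did. The ratio of piwil1 to piwil2 TPM was 4.74, 5.39 and 3.91 in the 10-dpf W-hybrid and 3.27, 3.72 and 4.18 in the 10-dpf Z-hybrid. At 12 dpf by Smart-seq it was 3.75, 4.64, 4.09 and 5.45 in the W-hybrid and 3.48, 5.24, 5.46 and 4.43 in the Z-hybrid. By Quartz-seq it lay between 3.08 and 3.94 in all 6 libraries. The 4 Smart-seq groups overlapped. In exact two-sided permutation tests of the log2 ratio in 4 comparisons, the W-Z difference was 0.33 at 10 dpf (p = 0.2, where 3 against 3 libraries cannot go below 0.1) and -0.05 at 12 dpf (p = 0.8). In the same exact tests, the difference of 12 from 10 dpf was -0.06 in the W-hybrid (p = 0.714) and 0.31 in the Z-hybrid (p = 0.2), and the adjusted values were 0.4 to 0.8.

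Across libraries of one method, the 2 genes went up and down together. Over the 14 Smart-seq germ cell libraries, log2(TPM + 1) of piwil1 and piwil2 had a Pearson r of 0.949 and a Spearman rho of 0.925 (permutation p = 1e-05, the smallest that 100000 resamples allow, and 2e-05, adjusted over 3 relations 3e-05 and 6e-05), and r was 0.902 without the 2 libraries farthest from the median of piwil1. Within the 6 libraries of 10 dpf, r was 0.974 and rho 1 (exact permutation p = 0.00139 and 0.00278, adjusted 0.00208 and 0.00417), and r was 0.859 without the 2 farthest. Within the 8 libraries of 12 dpf, r was 0.918 and rho 0.857 (permutation p = 0.00568 and 0.0107, adjusted 0.00568 and 0.0107), but r was 0.476 without the 2 farthest, the W-hybrid replicate 4 and Z-hybrid replicate 3 with the lowest levels of both genes, and that relation rests on those 2 libraries. The Quartz-seq libraries, which form a cluster of their own, were left out of these values.

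**Figure D5:**
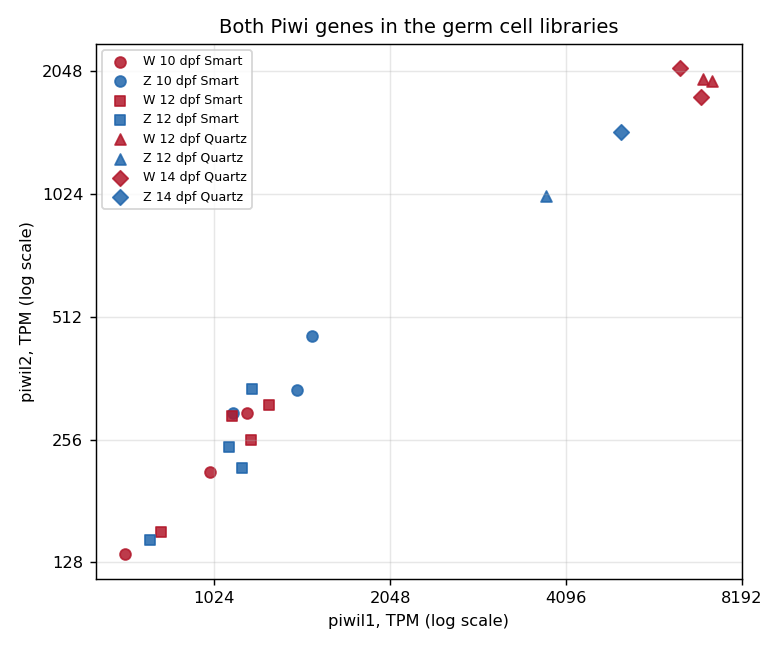
Level of piwil2 against piwil1 in the 20 germ cell libraries, TPM on log2 axes, with W-hybrid in red, Z-hybrid in blue and symbols for age and method. The 14 Smart-seq libraries lie along 1 band from 721 to 1505 TPM of piwil1, and the 6 Quartz-seq libraries form a separate cluster above them.

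The transcript length of the libraries moved with both levels as well. Over the 14 Smart-seq libraries, the TPM-weighted mean length had a Pearson r of 0.801 with piwil1 and 0.866 with piwil2 (permutation p = 0.00059 and 5e-05, adjusted over the 2 relations 0.00059 and 0.0001; Spearman rho 0.684 and 0.82, p = 0.00901 and 0.00056, adjusted 0.00901 and 0.00112), and r was 0.687 and 0.782 without the 2 farthest libraries. Within 10 dpf r was 0.916 and 0.966, and within 12 dpf 0.664 and 0.755. The Piwi genes are themselves part of that mean. Its part in the link between the 2 genes was not tested.

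Over the 14 Smart-seq libraries, 10950 genes with a mean above 5 TPM were compared with each Piwi gene. Those whose pattern was most like piwil1 by Pearson r were DOT1L (0.963, at a mean of only 5.03 TPM), DVL3 (0.957), PPP4R3A (0.955), parn (0.954) and piwil2 itself (0.949). For piwil2 they were rfwd3 (0.981), zcchc2 (0.97), NUP155 (0.97), CAPRIN1 (0.969) and TLE3 (0.969), and piwil1 came at place 34. The median r over all genes was 0.196 for piwil1 and 0.247 for piwil2, and 104 and 232 genes had an r above 0.9. Some of these genes were also measured in trunk, with DVL3 at 9.30 and 12.80 TPM and CAPRIN1 at 15.91 and 32.46 TPM, whereas zcchc2 was at 0.89 and 2.84 TPM there and piwil2 at 0. The choice was not stable, since 1 of the 5 nearest genes was shared for each Piwi gene when group means were taken out first, and by Spearman correlation none was shared for piwil1 and 1 for piwil2. The 100 genes most like piwil1 had a median length of 3370 bases and those most like piwil2 2977 bases, against 1835 bases for all 10950.

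The weighted mean length that RSEM gives a gene reflects which annotated transcripts took the reads. For piwil1 it was 3220 to 3237 bases in the 14 germ cell libraries of Smart-seq and 3178 to 3185 bases in the 6 Quartz-seq libraries, with no overlap and a shift of the medians from 3228 to 3179 bases. For piwil1, the hybrids overlapped in this measure at 10 and 12 dpf by Smart-seq. For piwil2 it was 3577 to 3651 bases by Smart-seq and 3617 to 3645 bases by Quartz-seq, with overlap. The hybrids did not overlap for piwil2 at 10 dpf, with 3603 to 3651 bases in the W-hybrid libraries and 3584 to 3601 bases in those of the Z-hybrid, but they did at 12 dpf by Smart-seq (3590 to 3645 and 3577 to 3637 bases). In trunk the value for piwil1 was 3206 and 1361 bases, but it rests on 6 and 4 counts.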

How the data were processed

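Sequencing tables of 22 libraries were used. Per the submitters' processing notes, reads were aligned with STAR 2.7.7a to GRCz11 and quantified with RSEM 1.3.1. The authors deposited expected counts, which need not be whole, TPM values, scaled for length and depth, and a weighted mean transcript length for each gene and library. The series-wide table of rounded counts was not used. The general protocol text names Smart-seq for all libraries, and the sample descriptions, which give Quartz-seq for the first experiment, were followed. Replicates are batches of pooled larvae, and nothing was pooled further. The unnumbered Quartz-seq libraries were taken as replicate 1. No sequences and no coordinates are printed, since no genome of the files' build was used here.

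Expected counts were rounded and tested in R 4.3.3 with edgeR 4.0.16: filterByExpr on the groups of the fit, TMM, robust glmQLFit and glmQLFTest, and p-values adjusted by Benjamini-Hochberg across every gene tested. Standard errors were derived from the F statistic and the log2 fold change. Each Smart-seq hybrid comparison was fitted on its own age, the age comparisons on 14 libraries, the Quartz-seq ones on 6, the method comparisons on the 12-dpf libraries, and trunk with the 10-dpf libraries. The edgeR test of W against Z was run on simulated data for 10 and 12 dpf by Smart-seq and for 14 dpf by Quartz-seq. No other comparison was simulated, so the 12-dpf Quartz-seq test and the interactions were not covered. Alternatives were DESeq2 1.42.0, its size factors in edgeR, library size alone, no filter, other sets of libraries, a term for the replicate number, each library left out in turn and, added after seeing the data, a lowess trend of log2 CPM on transcript length taken out of each library. Ratios were tested by exact permutation and correlations by permutation (scipy 1.17.1).

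The genes named are piwil1 and piwil2, members of the piRNA list that were called or had the highest or lowest level of their role, the Argonaute list, and the 5 genes most like each Piwi gene. The members, lists and tests were chosen with earlier results of these data known. Of the piRNA list, 8 symbols had no match and were not analysed here.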

Additional observations from a re-analysis of the deposited data

Results flagged for a closer look

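By the interaction test of edgeR, the difference between the hybrids at 12 dpf passed the threshold for differing between the methods in both genes. For piwil1 the interaction was 1.237 on the log2 scale and for piwil2 1.201. The W-Z difference by Smart-seq was near 0 and that by Quartz-seq was 1.08 and 1.11. Both interactions were smaller than the median over all genes without regard to direction, 1.414. The Z-hybrid arm of Quartz-seq was 1 library, and of 15 alternatives the call was lost in 1 for piwil1 and in 11 for piwil2. Of 10 sets of 4 libraries examined for a value far from the others, 1 stood out, the transcript length of piwil2 in the 12-dpf W-hybrid by Smart-seq. Its lowest library had 3589.88 bases and the other 3 were close to one another. Chance gives about 1 such case in 20 sets.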

How the results depend on the processing

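Over 22 results for the 2 genes and 332 alternatives, 305 kept the side of the threshold, 27 lost the call, none gained one and no call changed direction, while 13 uncalled values changed sign. These counts include piwil1 in germ cells against trunk, which describes the sort and kept its call in all 12 alternatives. At 10 dpf, the W-Z value of piwil2 was no longer called by DESeq2 (-0.574, under the 1.5-fold minimum), with its size factors in edgeR (-0.573), with 14 libraries of Smart-seq in the fit (-0.581) and with the length trend removed (-0.349), and it lay between -0.814 and -0.381 with each library left out. At 12 dpf by Quartz-seq, the size factors of DESeq2 gave 0.896 for piwil1 and 0.922 for piwil2, and leaving out libraries 1.064 to 1.092 and 1.078 to 1.128. For the interaction of hybrid and method, piwil1 was at 0.897 with those size factors, and piwil2 was at 0.866 by DESeq2, 0.857 with its size factors, 0.979 by library size alone and 1.12 with no filter, with 1.032 to 1.305 on leaving out libraries. For the link between the 2 genes, log2 CPM in place of TPM gave an r of 0.859 over 14 libraries, 0.922 at 10 dpf and 0.824 at 12 dpf, where it was -0.104 without the 2 farthest. Spearman rho on that scale was 0.754, 0.943 and 0.571 in the same order. At 12 dpf the rank relation did not pass (permutation p = 0.151).

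Counts of genes called moved by more than 1.5 times in these cases. At 10 dpf, W against Z, the count was 1428, 183 with all 14 libraries in the fit and 477 to 2410 on leaving out libraries. At 12 dpf by Smart-seq it was 29, 100 by DESeq2, 51 with 14 libraries and 18 to 48 on leaving out libraries. At 14 dpf it was 2126, 3277 by DESeq2 and 4442 with all 20 germ cell libraries. For 12 against 10 dpf in the W-hybrid it was 0, 103 by DESeq2, 1 with its size factors, 3 with no filter, 37 with that hybrid alone, 2 with the length trend removed and 0 to 28 on leaving out libraries. In the Z-hybrid it was 342, 932 by DESeq2, 8 with that hybrid alone, 133 with the length trend removed and 0 to 1312 on leaving out libraries. For hybrid by age it was 0, 391 by DESeq2 and 0 to 320 on leaving out libraries. For 14 against 12 dpf by Quartz-seq it was 3, 51 by DESeq2, 1 by library size alone, 80 with no filter, 9 with the length trend removed and 3 to 49 on leaving out libraries. The cause of these moves was not tested.

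Libraries of the same replicate number showed little shared deviation from their group means (correlations of -0.096 to 0.143), and the main fits did not pair them. Whether a shared number marks a shared batch was not tested. With the replicate number as a block, the Z-hybrid count for 12 against 10 dpf was 43 and that for hybrid by age 2, and piwil2 at 10 dpf was at -0.62. For Quartz-seq no paired analysis was possible because the labels leave 1 library of each pair unnumbered. The length trend was not removed in the comparison with trunk.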
